A study of Homo sapiens with 3 samples.

Results

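The genes described here are 10 nuclear receptor genes and receptor targets with known roles in bone: VDR, CYP24A1, RXRA, RARA, RARG, NR3C1, ESR1, ESRRA, PPARG and NR4A1. CYP24A1 encodes an enzyme and the other 9 encode receptors. They were chosen by name from 20163 annotated protein-coding genes, and each was described by the RUNX2 and CBFB peaks that lay within 25 kb of its gene body. This rule gave 16 of the 9941 RUNX2 peaks and 43 of the 27246 CBFB peaks, 59 in all. The peaks came from ChIP-seq, the sequencing of DNA precipitated with an antibody, in untreated SAOS2 cells, an established human osteosarcoma line that lacks p53, grown as a single culture condition. RUNX2 was precipitated with a custom-made antibody and its partner CBFB with a commercial antibody. Each antibody had 1 library, so no value below has a replicate error and no test between conditions could be made. The third sample, input DNA, was not analysed here. No expression data were used, so the peaks describe occupancy near these genes and not their output.

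RUNX2 is the transcription factor that commits cells to the osteoblast lineage. It binds DNA at a short core, TGTGGT, and CBFB joins it as a partner that does not bind DNA by itself. Nuclear receptors are transcription factors that are switched by small lipid-soluble ligands such as vitamin D, retinoic acid, glucocorticoids and oestrogens. Many of them pair with a retinoid X receptor such as RXRA and read repeats of the hexamer AGGTCA, whereas steroid receptors such as NR3C1 and ESR1 bind inverted repeats as pairs of themselves. In bone these receptors act in osteoblasts, in osteoclasts and in the choice of a marrow progenitor between bone and fat.

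The sequences that follow come from the GRCh37 (hg19) genome, the build of the peak lists, and are shown because they carry the RUNX core at the middle of peaks near these genes. All are printed 5′ to 3′ on the plus strand. Capitals mark the core, written TGTGGT where it lay on the plus strand and ACCACA where it lay on the minus strand, with 20 bases to either side. Of the 16 RUNX2 peaks, 7 held a core within 100 bp of the midpoint, near RXRA, RARA, RARG and ESR1. The CBFB peaks of VDR and PPARG, which had no RUNX2 peak, are given with them.
RXRA, intron, chr9:137295957-137296002: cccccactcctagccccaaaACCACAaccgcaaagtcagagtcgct
RXRA, downstream, chr9:137334245-137334290: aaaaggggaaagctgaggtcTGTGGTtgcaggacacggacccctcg
RARA, first intronic peak, chr17:38468424-38468469: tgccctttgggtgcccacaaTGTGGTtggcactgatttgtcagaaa
RARA, second intronic peak, chr17:38474144-38474217: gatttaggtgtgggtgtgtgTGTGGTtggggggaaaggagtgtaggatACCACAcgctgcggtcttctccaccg
RARG, intron, chr12:53613488-53613566: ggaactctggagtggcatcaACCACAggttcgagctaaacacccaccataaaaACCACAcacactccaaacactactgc
RARG, downstream in ITGB7, chr12:53599716-53599761: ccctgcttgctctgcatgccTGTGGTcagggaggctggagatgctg
ESR1, intron, chr6:152283756-152283801: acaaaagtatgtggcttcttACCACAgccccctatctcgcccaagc
VDR, intron, CBFB peak, chr12:48262414-48262484: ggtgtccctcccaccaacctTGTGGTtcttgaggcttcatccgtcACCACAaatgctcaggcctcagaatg
PPARG, intron, CBFB peak, chr3:12397939-12397984: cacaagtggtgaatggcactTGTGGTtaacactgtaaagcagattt
These 9 stretches held 12 cores, 6 on each strand, and 8 of the 12 were followed by a T, the longer form TGTGGTT. By peak, 7 of the 16 RUNX2 peaks held TGTGGT within 100 bp of the midpoint and 5 held TGTGGTT. Over the RUNX2 list, 4292 and 2327 of the 9928 searched peaks did. The VDR, RARA and RARG stretches with 2 cores had 19, 22 and 27 bases between them. In VDR and in RARA the paired cores faced each other on opposite strands, and in RARG both lay on the minus strand.

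RUNX2 peaks lay near 8 of the 10 genes, where 36.0% of all protein-coding genes had one within the same distance. CBFB peaks lay near all 10, where 62.2% of protein-coding genes had one. VDR and PPARG were the 2 genes with a CBFB peak and no RUNX2 peak, a state found for 27.1% of protein-coding genes. RXRA and RARA together took 8 of the 16 RUNX2 peaks and 27 of the 43 CBFB peaks. CYP24A1 and RARG had 2 RUNX2 peaks each, and NR3C1, ESR1, ESRRA and NR4A1 had 1 each. Long genes collect more peaks in a window of this kind, and 5 of the 10 genes spanned at least 100 kb (VDR, RXRA, NR3C1, ESR1 and PPARG). Among all protein-coding genes of that length, 49.5% had a RUNX2 peak and 74.3% a CBFB peak, beside 3 and 5 of these 5 genes.

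**Figure D1:**
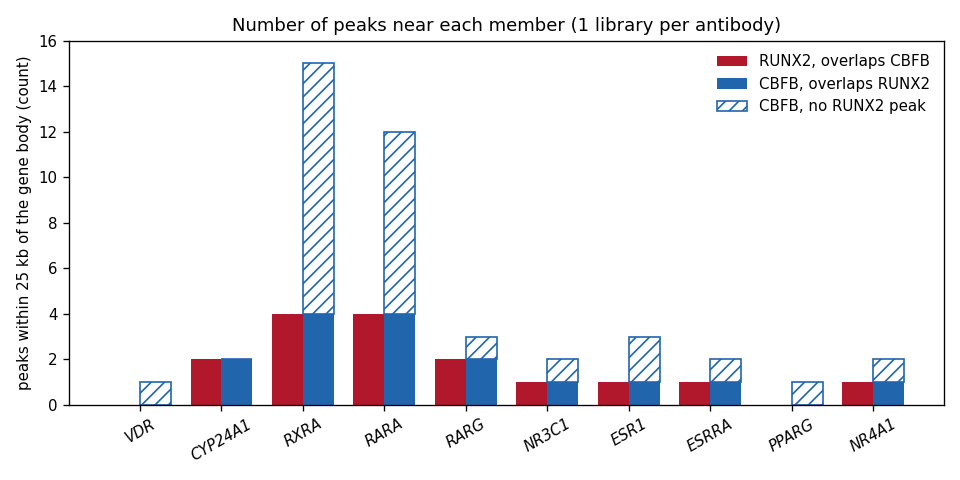
Number of RUNX2 peaks (red) and CBFB peaks (blue) within 25 kb of each gene body, from 1 library per antibody. Solid bars are peaks that overlap a peak of the other list and hatched bars are CBFB peaks without a RUNX2 peak. RXRA and RARA stand out with 15 and 12 CBFB peaks, and VDR and PPARG have a single CBFB peak and no RUNX2 peak.

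Per length, RARA stood highest of the 10 genes for both proteins, followed by RXRA for CBFB and by CYP24A1 for RUNX2. RARA had 4.06 RUNX2 peaks and 12.2 CBFB peaks per 100 kb of gene body with its 25 kb flanks, and 26 of the 20163 protein-coding genes had a higher CBFB density. RXRA had 2.31 RUNX2 and 8.65 CBFB peaks per 100 kb, with 222 genes above it in CBFB density. In plain number, 0.466% of protein-coding genes had at least as many CBFB peaks as RXRA and 0.853% at least as many as RARA. RARG and CYP24A1, both short genes, reached 2.76 and 2.84 RUNX2 peaks per 100 kb from 2 peaks each, above the 94th percentile of all genes. ESRRA (1.63) and NR4A1 (1.15) followed, and NR3C1 (0.482) and ESR1 (0.191), long genes with 1 RUNX2 peak each, were sparse. Over the 10 genes the median density was 1.39 RUNX2 and 2.57 CBFB peaks per 100 kb, against 0 and 1.14 over all protein-coding genes. The RUNX2 median was 0.423 over the gene body alone and 0 with peaks at or above the median score of the list, beside 0 over all genes in both cases, and the CBFB median with such peaks was 1.39.

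**Figure D2:**
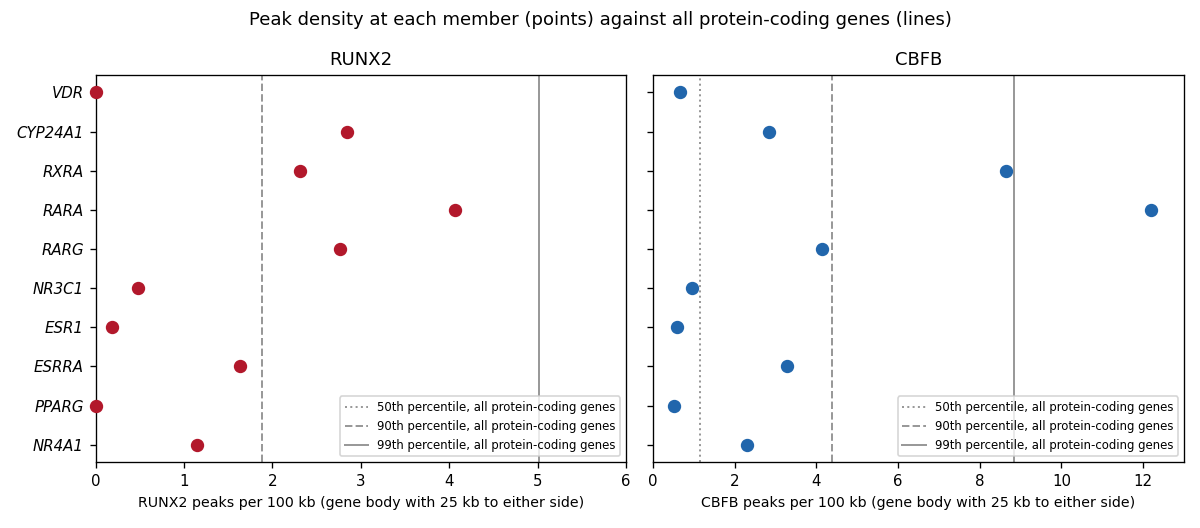
Density of RUNX2 peaks (left, red) and CBFB peaks (right, blue) in peaks per 100 kb of gene body with 25 kb to either side, 1 point per gene. Grey lines mark the 50th, 90th and 99th percentile of all protein-coding genes (the 50th lies at 0 for RUNX2). RARA lies beyond the 99th percentile for CBFB at 12.2 and RXRA just below it at 8.65, while VDR, PPARG, ESR1 and NR3C1 lie below the median for CBFB.

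Every one of the 16 RUNX2 peaks shared at least 1 bp with a CBFB peak (100%, exact binomial interval 79.4 to 100), beside 94.2% of the whole RUNX2 list. The study itself reported a smaller overlapping share of its RUNX2 list, under a rule for overlap that it does not state. The difference was not examined. Of the 43 CBFB peaks, 16 met a RUNX2 peak (37.2%, interval 23.0 to 53.3), beside 33.8% of the whole CBFB list. Both shares were close to those of their lists. These intervals cover counting error only, and neighbouring peaks of 1 gene are not independent. Of the 16 RUNX2 peaks, 13 lay wholly inside their CBFB peak, and the midpoints of the pairs were a median of 87.5 bp apart (range 9 to 658), against 96 bp over the list.

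The 27 CBFB peaks without RUNX2 lay near 9 of the 10 genes, the exception being CYP24A1, and 19 of them belonged to RXRA and RARA. They stood lower in the CBFB list than the shared ones, with a median score percentile of 27.5 against 79.7. The same split held over the whole list, at 35.9 and 80.0. The score is the peak caller's measure of strength, and a percentile of 100 marks the top peak of that list. Since a score depends on the depth of its library, which is unknown here, scores were only ranked within a list.

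The RUNX2 peaks near these genes were mostly modest ones. Their median percentile was 34.9 (range 0.835 to 98.9), 5 of 16 stood in the upper part of the list above its median, and 2 stood at or above the 90th percentile, both at RXRA. CBFB peaks had a median percentile of 55.6 (range 2.77 to 99.6), with 23 of 43 above the list median and 6 at or above the 90th percentile. Strong RUNX2 peaks tended to pair with strong CBFB peaks, with a Spearman rho of 0.744 over the 16 pairs and of 0.594 over the 12 pairs outside RXRA, beside 0.602 over the 9365 pairs of the list. These coefficients are descriptions across peaks of 2 libraries and carry no test. The study reported a higher coefficient over fewer overlapping peaks, computed from summed tags across each peak and not from the score.

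**Figure D3:**
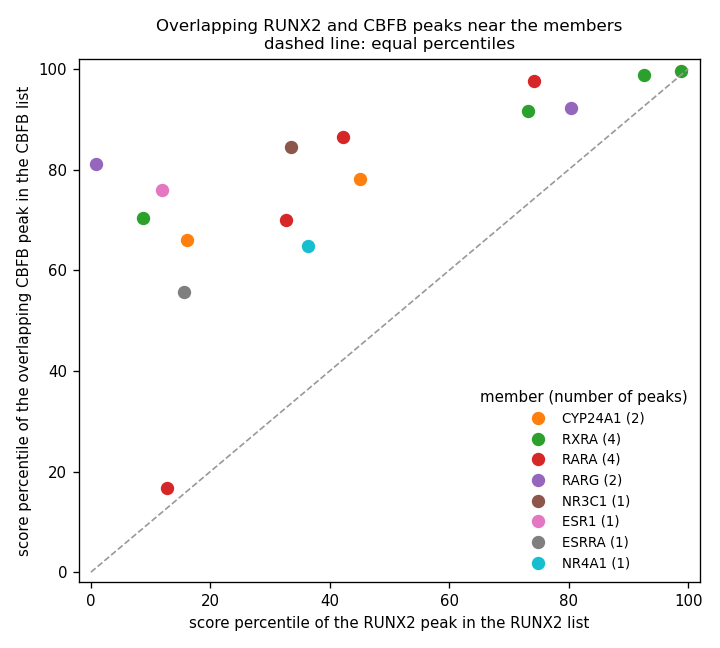
Score percentile of each RUNX2 peak near the genes (x axis, within the RUNX2 list) against that of the overlapping CBFB peak (y axis, within the CBFB list), 16 pairs coloured by gene. The dashed line marks equal percentiles, and where points lie relative to it depends on the unequal lengths of the lists, 9941 and 27246 peaks. A pair of RXRA points sits at the upper right, and the RARG intronic peak combines the lowest RUNX2 percentile (0.835) with a CBFB percentile of 81.1.

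Vitamin D signalling was represented by its receptor and by the enzyme that ends the signal, and they differed. VDR, the receptor for the active hormone (chr12:48235320-48336831, minus strand), had no RUNX2 peak within 25 kb, and the nearest lay 40900 bp from the gene body with a score of 146.98. Its single CBFB peak, at chr12:48262047-48262844, lay in a VDR intron 10453 bp from the nearest annotated VDR start and scored 59.52, rank 24121 of 27246. This was a weak peak, but its midpoint lay 8 bp from the nearer of the 2 cores printed above.

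CYP24A1, the 24-hydroxylase that inactivates vitamin D and is itself a classic VDR target (chr20:52769985-52790525, minus strand), had 2 RUNX2 peaks, and both overlapped CBFB. The first, chr20:52785928-52786802, lay in an intron 4.16 kb inside the gene start with a score of 78.65 (rank 5467 of 9941), and its CBFB partner scored 259.97 (rank 5938). The second, chr20:52748871-52749784, lay 20658 bp past the end of the gene with a score of 57.36, and its partner scored 178.31. Neither RUNX2 peak had a RUNX core within 100 bp of its midpoint, although the whole peaks held 1 and 2 cores. CYP24A1 was the only one of the 10 genes whose CBFB peaks were all shared with RUNX2.

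RXRA, the common partner of the vitamin D, retinoic acid and PPAR receptors (chr9:137208944-137332431, plus strand), held the highest RUNX2 peak of the set. At chr9:137295444-137296653 RUNX2 scored 469.5, rank 114 of 9941, and CBFB scored 1950.2 at rank 100 of 27246, so the site stood in the top part of both lists. It lay 87.1 kb inside the gene, where its midpoint fell in an RXRA exon annotated as neither coding nor untranslated sequence. The RXRA stretch labelled intron among those printed above is from this peak. The middle 201 bases of the peak, chr9:137295948-137296148, are given with the single core in capitals, 68 bp from the midpoint and with a T after it on its own strand.
RXRA peak middle: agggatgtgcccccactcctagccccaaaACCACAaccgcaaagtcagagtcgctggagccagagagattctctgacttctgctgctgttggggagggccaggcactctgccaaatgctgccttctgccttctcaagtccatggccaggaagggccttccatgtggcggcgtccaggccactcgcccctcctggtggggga

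The other RUNX2 peaks of RXRA differed widely in strength. A peak past the end of the gene, chr9:137346092-137347274, scored 232.02 (rank 737), and its CBFB peak scored 1244.84 (rank 342) and was 4506 bp wide, the widest of the 43. It lay 14252 bp from the gene body, in sequence between genes, and RXRA was the protein-coding gene with the nearest start. An intronic peak, chr9:137264575-137265509, scored 123.71 (rank 2660) with a CBFB score of 506.32 and lay 1225 bp from an internal RXRA start. The fourth, chr9:137333748-137334663, lay 1774 bp past the gene and scored 53.75 (rank 9081), near the foot of the list, although its core is printed above. RXRA thus had both the strongest and some of the weakest peaks of the set.

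The downstream RXRA peak was the only one of the 16 to hold a direct repeat of AGGTCA with 1 base between the copies (DR1), the spacing read by RXR pairs and by several of their partners. It lay at chr9:137346694-137346706 on the minus strand, 17 bp from the midpoint of the RUNX2 peak, and the copies are in capitals here with 20 bases to either side.
RXRA DR1: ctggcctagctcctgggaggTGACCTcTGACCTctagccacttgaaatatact
Over the RUNX2 list 2 of 9928 searched peaks had this repeat within 100 bp of the midpoint, and 9 had it anywhere. The peak held 4 copies of the hexamer in all, and the nearest RUNX core lay 184 bp from the repeat, counted from start to start. The match describes the sequence and does not show that a receptor bound there.

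RXRA also had 11 CBFB peaks without a RUNX2 peak, the most of any of the 10 genes. The highest, chr9:137269582-137272636, scored 686.65 (rank 1335) and stood 24th of the 18042 CBFB peaks that met no RUNX2 peak. Its midpoint was 32 bp from an internal RXRA transcript start, it held 4 cores but none within 100 bp of the midpoint, and the nearest RUNX2 peak was 4.07 kb away. Further intronic CBFB peaks without RUNX2 scored 327.48, 279.22 and 260.17, all above the median of the CBFB list, and the remaining 7 scored between 52.27 and 98.32.

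RARA, the retinoic acid receptor alpha (chr17:38465432-38513895, plus strand), carried its peaks around its start and first introns, and its far end was bare. The strongest RUNX2 peak, chr17:38467976-38468931, lay in an intron 3.02 kb inside the gene and scored 126.15 (rank 2569). Its CBFB partner scored 952.46 (rank 673), the midpoints were 9 bp apart, and the core lay 6 bp from the RUNX2 midpoint, the closest of the set. The second intronic peak, chr17:38473805-38474623, scored 67.79 with a CBFB score of 199.55, and it lay 319 bp from a RARA transcript start with the paired cores printed above. The other 2 lay upstream of RARA, towards the replication licensing gene CDC6. The peak at chr17:38460445-38461295 scored 75.56, lay over an untranslated part of CDC6 and had a CDC6 start as the nearest, and the peak at chr17:38463430-38464209 scored 55.59 with a CBFB score of 64.81 and held no core.

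RARA had 8 CBFB peaks without RUNX2, and 6 of them lay inside the gene. The strongest, at chr17:38478312-38480044, scored 254.67 and centred 65 bp from an internal transcript start. The next scored 150.33 and 133.65, and the rest ran from 58.75 to 91.53. A pair of upstream peaks had CDC6 as the gene with the nearest start, the nearer of them 168 bp from it.

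RARG, the retinoic acid receptor gamma that is prominent in cartilage (chr12:53604351-53626764, minus strand), had 2 shared peaks of opposite standing. The stronger, chr12:53599301-53600328, scored 145.47 (rank 1952) with a CBFB score of 531.28, but it lay 4537 bp past the end of RARG in an intron of ITGB7, an integrin gene whose start was nearer. The peak within RARG, chr12:53613188-53613970, scored 50.28 (rank 9859 of 9941), barely above the lowest deposited score of 50. It was 289 bp from a RARG transcript start, held both cores within 100 bp of its midpoint, and met a CBFB peak of 291.27 (rank 5141). A CBFB peak of 146.9 without RUNX2 lay 1042 bp upstream of the RARG start.

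**Figure D4:**
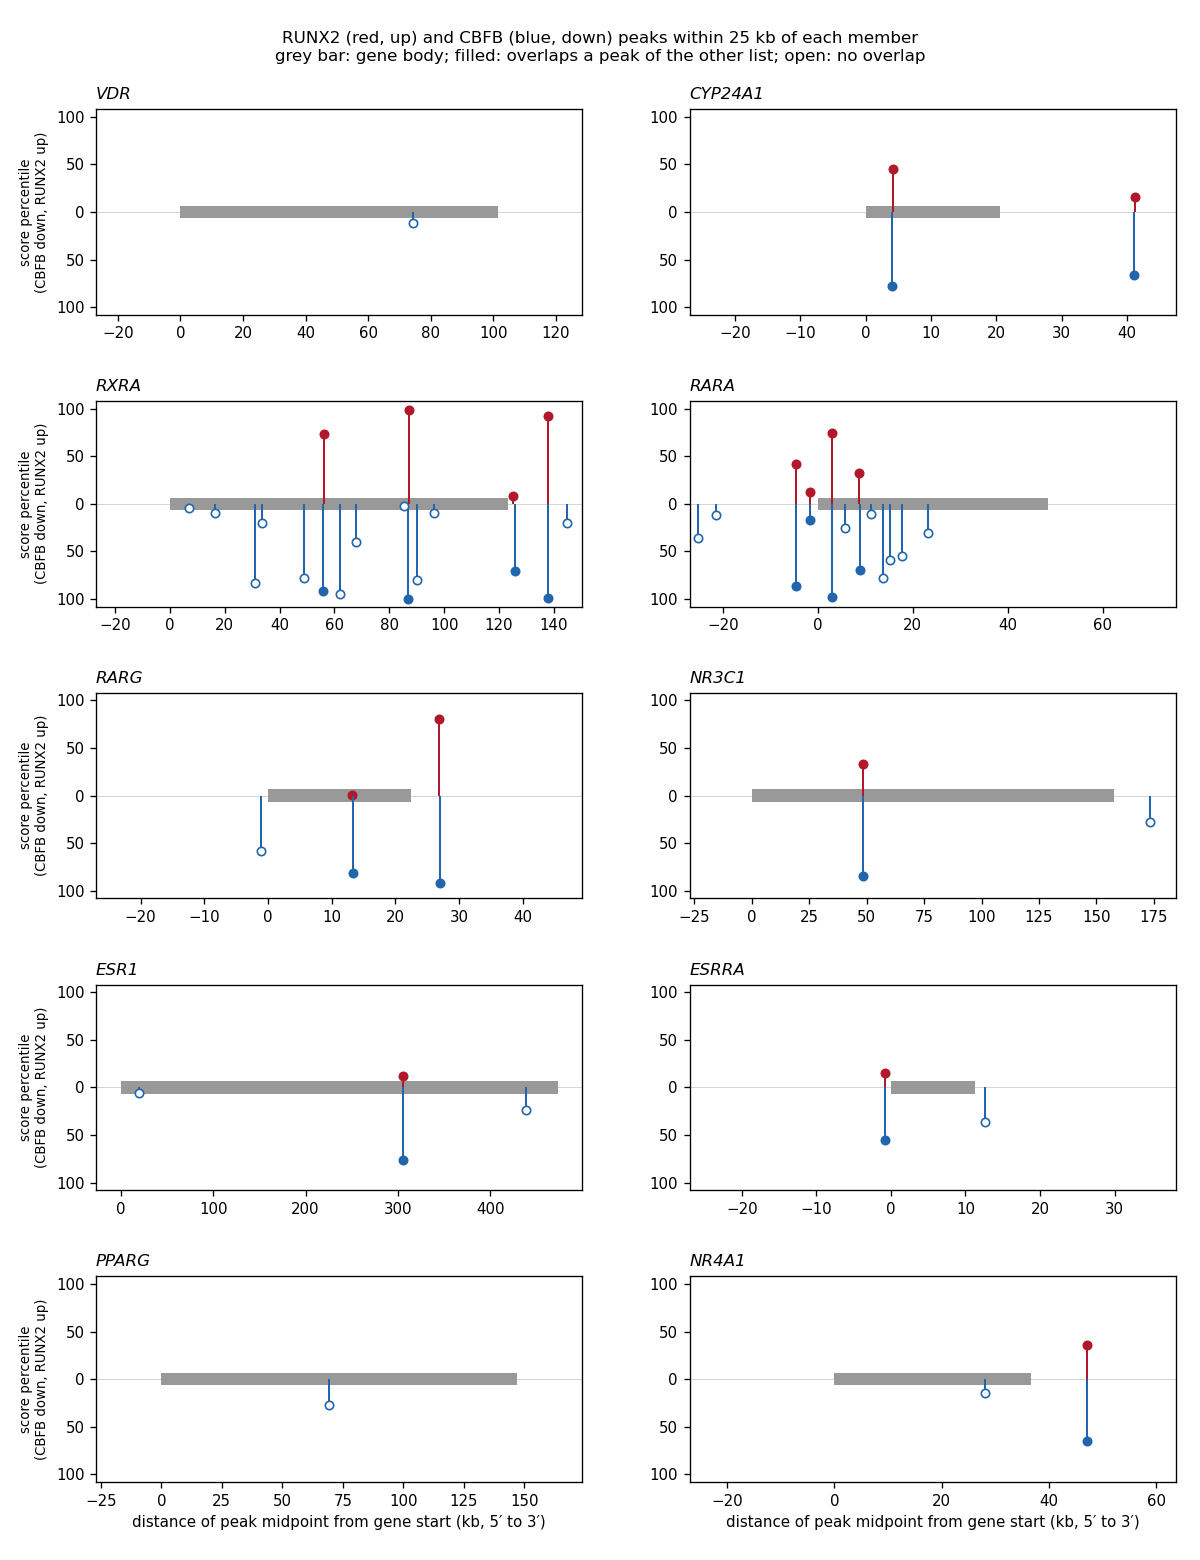
Peaks within 25 kb of each gene, plotted by the distance of the peak midpoint from the gene start in kb, read 5′ to 3′ (x axis, own scale per gene), against the score percentile within the list (y axis, RUNX2 upward in red, CBFB downward in blue). Filled points overlap a peak of the other list and open points do not. RXRA has peaks along its length and past its end, those of RARA cluster around its start, and VDR and PPARG show 1 open CBFB point each.

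Among the steroid receptors, NR3C1 and ESR1 each had 1 RUNX2 peak, intronic and modest. NR3C1, the glucocorticoid receptor (chr5:142657496-142815077, minus strand), had its peak at chr5:142766216-142767082, 2917 bp from an internal transcript start, with a score of 68.49 (rank 6611). Its CBFB partner scored 338.18 (rank 4233). ESR1, the oestrogen receptor alpha (chr6:151977826-152450754, plus strand), had its peak at chr6:152283371-152284258, 18507 bp from the nearest ESR1 start, with a score of 55.15 (rank 8766) and a CBFB score of 239.95. Further CBFB peaks without RUNX2 scored 78.55 near NR3C1, where ARHGAP26 had the nearest start, and 54.91 and 72.71 in ESR1 introns, the last nearest to the start of SYNE1.

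ESRRA (chr11:64072969-64084215, plus strand) is an orphan receptor related to the oestrogen receptors that governs energy metabolism. It had a RUNX2 peak 829 bp upstream of its start at chr11:64071814-64072467. Of the 16 RUNX2 peaks, this peak lay nearest to the record start of its own gene among the 10. It scored 56.93 (rank 8399) with a CBFB score of 137, held no RUNX core, and overlapped an untranslated part of the neighbouring gene CATSPERZ. A CBFB peak without RUNX2 (92.09) lay past the end of ESRRA, 18 bp from the start of PRDX5, a peroxiredoxin gene.

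PPARG, the master regulator of fat cell formation (chr3:12328867-12475855, plus strand), had no RUNX2 peak within 25 kb, and the nearest lay 58731 bp from the gene body with a score of 154.42. Its single CBFB peak, chr3:12397506-12398564, scored 78.14 (rank 19764) in an intron, 4967 bp from an internal transcript start and thus just inside the 5 kb that defined a promoter. NR4A1, an orphan receptor induced rapidly by growth signals and parathyroid hormone (chr12:52416616-52453291, plus strand), had its RUNX2 peak outside the gene, 10443 bp past the end. That peak, chr12:52463392-52464077, scored 70.58 (rank 6325) with a CBFB score of 172.69 and lay 26 bp from a start of ATG101, an autophagy gene. Within NR4A1 itself there was 1 CBFB peak (61.98) without RUNX2, 448 bp from a transcript start, and the whole peak held no RUNX core.

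How many peaks counted as close to a transcript start depended on the definition of a promoter. With a promoter taken as 5 kb to either side of any annotated start of the gene, 9 of the 16 RUNX2 peaks (56.2%, interval 29.9 to 80.2) and 21 of the 43 CBFB peaks (48.8%, interval 33.3 to 64.5) were in promoters. Over the pairs of any protein-coding gene and a peak within 25 kb, the shares were 32.4% and 32.9%. By gene, 6 of the 10 had a RUNX2 peak in a promoter (CYP24A1, RXRA, RARA, RARG, NR3C1 and ESRRA) against 16.8% of protein-coding genes, and 8 of the 10 had a CBFB peak there against 37.9%. Genes with more annotated starts take in more promoter sequence, and the number of starts was not matched in these comparisons. With 1 kb to either side the shares fell to 18.8% and 14.0%, and with the start of the gene record alone they were 31.2% and 14.0%. The shares over all protein-coding genes were not set beside these other definitions. The nearest protein-coding start belonged to the gene in question for 13 of 16 RUNX2 peaks and 35 of 43 CBFB peaks. The other 3 RUNX2 peaks had CDC6, ITGB7 and ATG101 as the nearest.

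The RUNX core was about as frequent as in the lists at large. It was within 100 bp of the midpoint in 7 of 16 RUNX2 peaks (43.8%, interval 19.8 to 70.1; 43.2% over the list) and in 20 of 43 CBFB peaks (46.5%, interval 31.2 to 62.3; 41.6% over the list). Over the whole peak the counts were 14 of 16 and 37 of 43, beside 78.1% and 80.9%. The RUNX2 peaks without any core were the weak upstream peak of RARA and the ESRRA peak. The receptor hexamer AGGTCA lay within 100 bp of the midpoint in 2 of 16 RUNX2 and 5 of 43 CBFB peaks, beside 11.7% and 12.3% of the lists. Longer receptor elements, each searched on both strands, were rare everywhere. Beyond the DR1 at RXRA, no peak of either set held the hexamer repeated with 3 or 5 bases between, its inverted repeat with 3 bases between (the oestrogen response element) or the inverted repeat of AGAACA with 3 bases between (the glucocorticoid response element). The AP-1 motif TGACTCA lay within 100 bp in 1 of 16 and 2 of 43 peaks, against 9.72% and 8.52% of the lists. A strict letter search misses sites with a mismatch, so these counts say nothing of whether a receptor bound.

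The median base composition of the peaks differed from that of the lists, but the medians weigh some genes more than others. RXRA and RARA held 8 of the 16 RUNX2 peaks and 27 of the 43 CBFB peaks, and no median was taken without them. The RUNX2 peaks near these genes had a median GC content of 57.7% (range 35.4 to 66.8) against 47.7% over the list, and the CBFB peaks 59.2% against 46.7%. The RUNX2 peaks of RXRA (57.8% to 63.1%), ESRRA (59.3%) and NR4A1 (66.8%) were GC-rich, whereas those of NR3C1 (35.4%), CYP24A1 (37.7% and 40.9%) and ESR1 (40.9%) were AT-rich. The RUNX2 peaks of RARA ran from 49.4% to 58.4%, and those of RARG were 49.9% and 60.9%. The part of base composition in the number of peaks was not tested.

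The wider receptor family gave a frame for these values. Of 48 human nuclear receptor genes, 26 had a RUNX2 peak within 25 kb (54.2%) and 38 a CBFB peak (79.2%). Over all protein-coding genes the shares were 36.0% and 62.2%, and gene length was not matched. Without the 9 receptors described above, 19 of 39 had a RUNX2 peak (48.7%, interval 32.4 to 65.2) and 29 of 39 a CBFB peak (74.4%, interval 57.9 to 87.0). No receptor gene had a RUNX2 peak scoring above that of RXRA. Apart from the 9 receptors described above, the highest were RXRG, a sister of RXRA, at 263.28 (rank 546), RORA, an orphan receptor of the clock, at 227.61 (rank 776), NR6A1 at 172.23 (rank 1436), RARB at 169.17 (rank 1487) and NR5A2 at 127.66 (rank 2513). RARB, the third retinoic acid receptor, had 11 RUNX2 and 23 CBFB peaks over a gene record of 910 kb, which came to 1.15 and 2.40 per 100 kb, well under the densities of RARA. The third retinoid X receptor, RXRB, was among the 10 receptor genes with no peak of either kind, with PGR, the progesterone receptor, ESRRB and ESRRG.

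Coregulators, the proteins through which receptors switch genes on or off, and genes of ligand supply gave further counts, without matching of gene length. Of 9 coregulator genes 5 had a RUNX2 peak and 8 a CBFB peak, beside 36.0% and 62.2% of all protein-coding genes. Among them, the RUNX2 peaks of the coactivator genes NCOA3 and NCOA2 reached scores of 186.98, with SULF2 the nearest start, and 150.96. Of 20 genes of ligand metabolism and response, 5 had a RUNX2 peak (25%, interval 8.66 to 49.1) and 14 a CBFB peak (70.0%, interval 45.7 to 88.1). Both intervals take in the shares of all protein-coding genes. The highest scores there were at ALDH1A2, which makes retinoic acid (144.62), at CYP27B1, which makes active vitamin D (89.91, but 2 bp from the start of TSFM), and at CYP19A1, the aromatase that makes oestrogen (78.4).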

How the data were processed

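RUNX2, CBFB and input libraries from SAOS2 cells were sequenced by the authors, 1 library each, from cells under 20 passages. Peak positions and scores were used as deposited. The submitters' processing notes name MACS 1.4.1, CASAVA 1.8.2 and hg19. The aligner, the depth, the limit for calling and the use of the input are not given in the sources used here. Scores in the deposited lists were taken to be the MACS score, −10 times log10 of the p-value, from the peak names and the values, which ran from 50 to 3100. Genes came from GENCODE 44 lifted to GRCh37. A peak belonged to a gene when any base lay within 25 kb of the gene body, overlap needed 1 bp, and positions were counted from 1. Intervals are exact Clopper-Pearson at 95%. Named genes were all 10 members, genes with a nearer start, and the 5 other receptors and 3 genes of each further list with the highest RUNX2 scores. One gene that this rule names is not reported here. RXRB, PGR, ESRRB and ESRRG, which had no peak, were named after their values were seen. Motifs were searched in peaks on assembled chromosomes. Members and lists were chosen with earlier results of these data known, and the comparison with genes of at least 100 kb was added after the counts were seen. Overlap, distance and motif steps were tested on simulated data. Python 3.11.15, pandas 2.3.3, numpy 2.4.6, scipy 1.17.1 and matplotlib 3.10.9 were used.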

Additional observations from a re-analysis of the deposited data

How the results depend on the processing

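No paired analysis was possible because there was 1 library for RUNX2 and 1 for CBFB, so no test was made. Of 44 recomputed values under the alternatives, 30 stayed within the margin set for them, 14 moved and 0 were labelled as reversed. For the promoter shares and the numbers of genes with a peak, no value over all genes was set beside the alternatives. A reversal against all genes could therefore not be seen for these. A value within its margin could still lose its contrast with all genes. The median RUNX2 density fell from 1.39 to 0 with peaks at or above the median score, beside 0 over all protein-coding genes. The RUNX2 promoter share fell from 56.2% to 31.2% with the start of the gene record alone. Both counted as within the margin. With peaks at or above the median score of their list, 3 genes (RXRA, RARA and RARG) had a RUNX2 peak, RUNX2 and CBFB peaks numbered 5 and 23, and 21.7% of the CBFB peaks were shared. Both lists were cut in this setting, so fewer RUNX2 peaks were left to be shared. Within 100 kb there were 25 RUNX2 and 73 CBFB peaks, and VDR and PPARG then had 2 and 1 RUNX2 peaks. With the CBFB list shortened to the length of the RUNX2 list, 19 CBFB peaks were left, of which 73.7% were shared. The share of CBFB peaks without RUNX2 thus depends on how far down each list is read. The shares over the whole of the cut lists were not set beside 21.7% and 73.7%. No share of all protein-coding genes was set beside the 3 genes, nor beside the counts within 100 kb. Promoters of 1 kb gave 18.8% for RUNX2 and 14.0% for CBFB, and the start of the gene record alone gave 31.2% and 14.0%. No share over all genes was set beside these values. The RUNX core was found in 87.5% and 86.0% of RUNX2 and CBFB peaks over the whole peak, beside 78.1% and 80.9% of the lists. The motif of 7 bases lay within 100 bp of the midpoint in 31.2% (interval 11.0 to 58.7) and 30.2% (17.2 to 46.1). Its shares over the lists were 23.4% and 23.2%. Read depth is unknown, so a missing peak means only that none was called at this depth, which for RUNX2 at VDR and PPARG cannot be told apart from weak occupancy.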
